A study of Mus musculus with 4 samples.

Results

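The fibroblast growth factor (FGF) receptor genes, the growth plate ligand Fgf18 and the genes that feed back on receptor signalling through ERK were followed in proliferative-zone chondrocytes with and without Ift88. The 10 genes are the receptors Fgfr1, Fgfr2, Fgfr3 and Fgfr4, the ligand Fgf18, and the feedback genes Spry1, Spry2, Spry4, Spred1 and Dusp6. They were chosen by name: every probe set (a group of short probes that together report 1 transcript) whose array annotation gives exactly 1 of these symbols was taken. This gave 30 of the 45037 probe sets tested, with 8 for Spred1, 5 for Fgfr4, 4 for Spry4, 3 each for Fgfr1 and Fgfr2, 2 each for Fgfr3 and Spry2, and 1 each for Fgf18, Spry1 and Dusp6.

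The series holds 4 Affymetrix mouse arrays, 2 per group, all from animals of the C57BL/6 background at postnatal day 7. The Ift88-deleted animals, titled Cilia-deleted, carried Col2aCre;Ift88fl/fl: 2 floxed alleles of Ift88, a gene needed to build the primary cilium, are recombined by a Cre that collagen II regulatory sequences drive in the cartilage lineage. The control animals are labelled wild-type, and whether they carried the Cre or a floxed allele is not given in the sources used here. The zone was cut with a needle from sections of the proximal tibia and distal femur, so a sample may hold neighbouring cells, and the RNA was amplified before labelling. The replicates are named as biological, and whether tissue of several animals was pooled is not given.

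FGF ligands bind receptor tyrosine kinases together with heparan sulfate, and the active receptor signals through the adaptor FRS2, RAS and RAF to the kinase ERK. In the growth plate FGFR3 is the receptor of proliferating chondrocytes and slows their division, FGFR1 is best known from hypertrophic chondrocytes and from the perichondrium, FGFR2 from the perichondrium and early condensations, and FGF18, made mainly outside the cartilage, is a ligand that acts through FGFR3. Sprouty and Spred proteins restrain RAS and RAF, DUSP6 is a phosphatase that removes the activating phosphates of ERK, and several of these genes are themselves induced by ERK, which makes them common readouts of FGF signalling.

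Each value is the log2 departure of an array from the middle of the 4 values of that probe set. It gives differences between arrays and no level of a gene, and levels of different genes cannot be set against each other. Both control arrays were high in Xist (between 3.13 and 3.98 in 3 probe sets) and low in the Y-linked gene Eif2s3y (-3.15 and -3.40 in 1 probe set, with no such split in another), and both Ift88-deleted arrays were the reverse, so sex by these genes and genotype cannot be told apart in any result here. All 10 genes lie on autosomes per RefSeq. Ift88 itself, with 1 probe set, stood at 0.07 and -0.08 in the controls and at 0.22 and -0.07 in the Ift88-deleted arrays, and the place of its probes relative to the deleted part was not analysed here. Of the 8 probe sets of Hedgehog readouts, 7 were lower with groups apart, beside 17.4 percent of all probe sets, and 1 passed the adjusted threshold. That Ptch1 probe set (1428853_at) was 1.26 and 1.01 in the controls against -1.01 and -1.02 (difference -2.15, SE 0.154, limma adjusted p = 0.0416). Ptch1 1439663_at (-2.81, adjusted p = 0.1185) and Gli1 (-2.62, adjusted p = 0.0911) did not pass, and Ptch1 1450824_at overlapped (0.08).

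None of the 30 probe sets passed the threshold of 0.05 for the adjusted p (limma with Benjamini-Hochberg adjustment over all 45037 probe sets), where 0.0444 percent of all probe sets did. The lowest adjusted p among the 30 was 0.323. An unadjusted p under 0.05 was found for 7 of the 30 (6 higher and 1 lower in the Ift88-deleted arrays), or 23.3%, against 6.17 percent of all probe sets (3 percent higher and 3.18 percent lower), and these 7 belong to Spred1 (3), Fgfr1 (2), Fgfr3 (1) and Fgfr4 (1). Probe sets of the same gene are not independent. The groups' values were apart, with no overlap, in 12 of the 30 probe sets (40%), 10 higher and 2 lower, where the figure over all probe sets was 33.6 percent (16.2 percent higher and 17.4 percent lower). The median difference of the 30 was 0.13 against 0.00 over all probe sets, with 19 above 0 and 11 below. Taking the mean over the probe sets of each gene, 0 of the 10 genes passed (0.011 percent of the 18193 genes did), and 2 of them, Fgfr1 and Spred1, had an unadjusted p under 0.05 (5.96 percent of genes). By these means the groups were apart for 5 of the 10 genes, Fgfr1, Fgfr4, Spry2 and Spred1 higher and Fgfr3 lower, beside 33.3 percent of all genes. Because none of the 10 genes passed, their differences are given as values and not as calls.

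**Figure D1:**
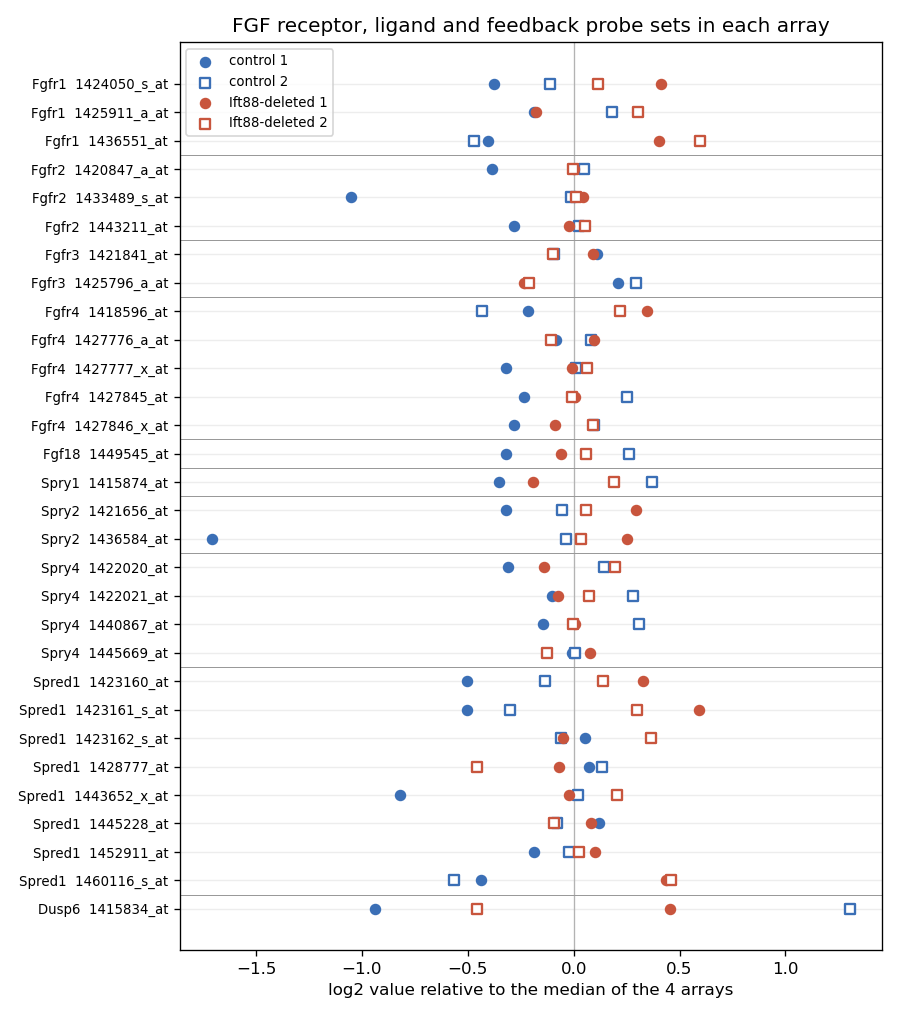
The plot of values by array shows each of the 30 probe sets on a row and the log2 value relative to the median of the 4 arrays on the horizontal axis, with control arrays in blue and Ift88-deleted arrays in red, filled circles for replicate 1 and open squares for replicate 2. Blue and red separate for Fgfr1 1436551_at, Fgfr3 1425796_a_at and Spred1 1460116_s_at, while control 1 alone stands low for Spry2 1436584_at (-1.71) and Fgfr2 1433489_s_at (-1.05), and the controls stand at opposite ends for Dusp6.

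Among the receptors, Fgfr1 had the largest difference. Its probe set 1436551_at was at -0.40 in control 1 and -0.47 in control 2, and at 0.40 and 0.60 in the Ift88-deleted arrays. The groups were apart by more than either pair of replicates differed, with gaps of 0.07 between controls and 0.19 between Ift88-deleted arrays. The difference was 0.94, or 1.91-fold higher (SE 0.148, 95% interval 0.57 to 1.31, adjusted p = 0.343), and stayed between 0.84 and 1.03 with any 1 array left out. The probe set 1424050_s_at was at -0.38 and -0.11 in the controls and at 0.41 and 0.11 in the Ift88-deleted arrays, a difference of 0.51 (interval 0.06 to 0.96) with groups that did not overlap but with control 2 and Ift88-deleted 2 close together. The third, 1425911_a_at, whose original values fall in the dimmest class (an RMA value of 2 to 4 in its lowest array), was at -0.19 and 0.18 against -0.18 and 0.30 and overlapped. The mean of the 3 was 0.50 higher (SE 0.138, adjusted p = 0.682).

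The pair of probe sets for Fgfr3, the receptor that restrains chondrocyte division, gave unlike results. Both were placed in the brightest class (8 or more), a coarse placing that can be too bright by chance. The values of 1425796_a_at were 0.21 and 0.29 in the controls and -0.23 and -0.21 in the Ift88-deleted arrays. Replicates lay close together, with gaps of 0.08 and 0.02, and the difference was -0.47, or 1.39-fold lower (SE 0.137, 95% interval -0.82 to -0.13, adjusted p = 0.689). The values of 1421841_at were 0.11 and -0.09 in the controls and 0.09 and -0.10 in the Ift88-deleted arrays, a difference of -0.01 (interval -0.41 to 0.39). Subtracting the second from the first within each array gave 0.10 and 0.39 in the controls and -0.33 and -0.11 in the Ift88-deleted arrays, and the groups did not overlap in this subtraction, for which no test is given. An _a_at probe set matches several transcripts of 1 gene, and which Fgfr3 transcripts each of them reads was not analysed here.

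Fgfr1 1436551_at and Fgfr3 1425796_a_at lay on opposite sides, while Fgfr1 1425911_a_at (0.07) and Fgfr3 1421841_at (-0.01) overlapped. Subtracting Fgfr3 1425796_a_at from Fgfr1 1436551_at within each array gave -0.61 and -0.76 in the controls and 0.64 and 0.81 in the Ift88-deleted arrays, a shift of 1.41. With Fgfr1 1424050_s_at and Fgfr3 1421841_at the same subtraction gave -0.48 and -0.02 against 0.32 and 0.21, a shift of 0.52 with groups still apart. Nearly all of that shift was from Fgfr1 (0.51), as Fgfr3 1421841_at differed by -0.01. These pairs were picked after the values were seen, and with 2 arrays per group an exact two-sided permutation test can give no p below 1 in 3, so none is given.

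For Fgfr2 the distance between the groups came from control 1. Its probe set 1433489_s_at was at -1.05 in control 1 and -0.01 in control 2, and at 0.04 and 0.01 in the Ift88-deleted arrays. Control 2 and both Ift88-deleted arrays thus lay close together, and the difference of 0.56 (SE 0.343, 95% interval -0.30 to 1.42) was 0.04 without control replicate 1. The others, 1420847_a_at (-0.38 and 0.05 against 0.00 and -0.00) and 1443211_at (-0.28 and 0.02 against -0.02 and 0.05), also had control 1 lowest but overlapped, with control 2 above 1 or both Ift88-deleted arrays. Their differences of 0.17 and 0.14 changed sign without it. The mean over the Fgfr2 probe sets was 0.29, and 0.15 without the _s_at probe set.

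Fgfr4, a receptor with no well-known part in the growth plate, had 1 probe set with groups apart among 5. The values of 1418596_at were -0.22 and -0.43 in the controls and 0.34 and 0.22 in the Ift88-deleted arrays, a difference of 0.61 (1.52-fold, SE 0.155, interval 0.22 to 0.99, adjusted p = 0.652). The other 4 overlapped, with differences from -0.01 to 0.18. Fgf18 did not separate the groups: it was at -0.32 in control 1 and 0.26 in control 2, with the Ift88-deleted arrays at -0.06 and 0.06 between them. Its difference was 0.03 with an interval of -0.53 to 0.59, so these arrays could not resolve a change of less than about that size.

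**Figure D2:**
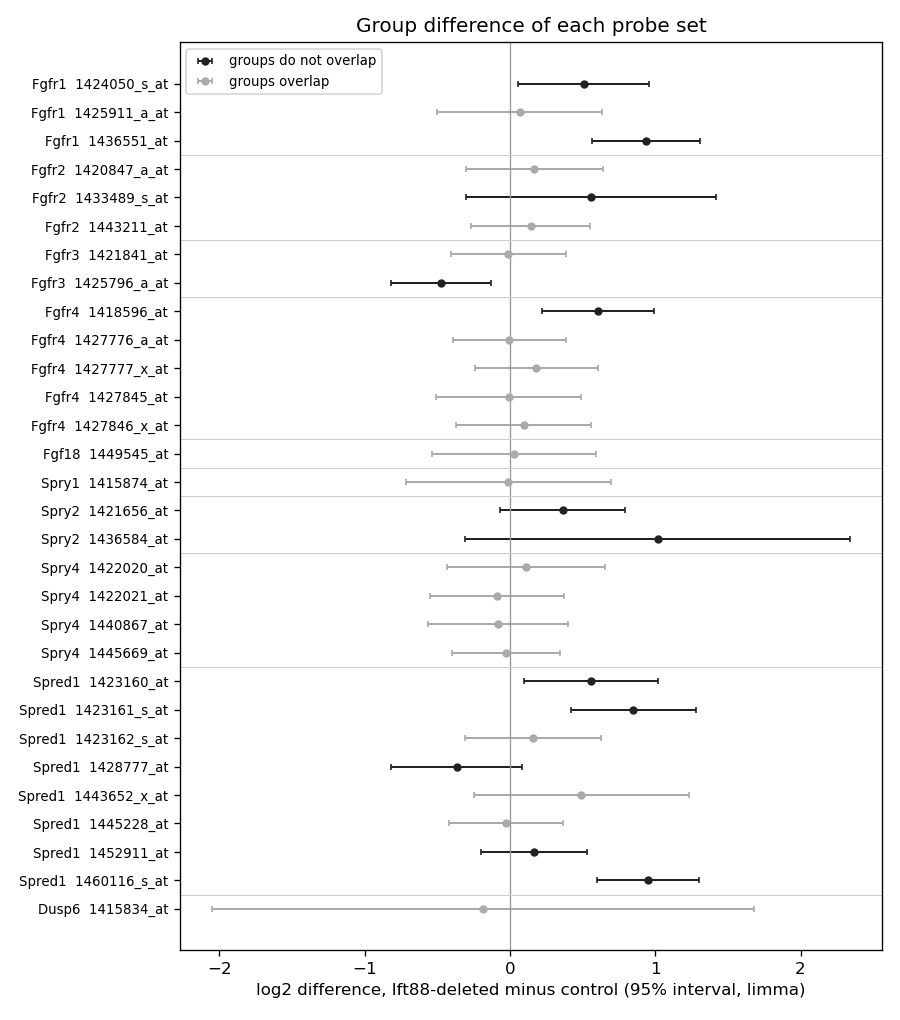
The plot of differences gives for each probe set the log2 difference of Ift88-deleted minus control with its 95% interval from limma, in black where the values of the groups do not overlap and in grey where they do. The intervals of Fgfr1 1436551_at (0.57 to 1.31) and Spred1 1460116_s_at (0.60 to 1.30) lie farthest from 0, that of Fgfr3 1425796_a_at lies below 0, and that of Dusp6 (-2.05 to 1.68) is the widest.

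Spred1, an inhibitor of RAF activation, had the lowest adjusted p and also the most uneven probe sets. The values of 1460116_s_at were -0.44 and -0.57 in the controls and 0.44 and 0.46 in the Ift88-deleted arrays. Both groups were tight and far apart, and the difference was 0.95, or 1.94-fold higher (SE 0.14, adjusted p = 0.323), staying between 0.89 and 1.02 with any 1 array left out. The values of 1423161_s_at were -0.50 and -0.30 against 0.59 and 0.30 (difference 0.85, SE 0.172, adjusted p = 0.517), and those of 1423160_at were -0.51 and -0.14 against 0.33 and 0.14 (difference 0.55, SE 0.184). In both the controls lay below the Ift88-deleted arrays, and control 1 was the lowest array.

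The other 5 Spred1 probe sets were mixed. The values of 1428777_at ran the other way, at 0.07 and 0.13 in the controls and -0.07 and -0.46 in the Ift88-deleted arrays (difference -0.37, interval -0.82 to 0.08). The probe set 1452911_at was at -0.19 and -0.02 against 0.10 and 0.02 (0.17), so its groups were apart on the same side as in the first 3. For 1443652_x_at control 1 was at -0.82 with the remaining arrays between -0.02 and 0.20, a difference of 0.49 with groups that overlapped. The last 2, 1423162_s_at and 1445228_at, overlapped with differences of 0.16 and -0.03. Within each array, 1460116_s_at minus 1428777_at was -0.51 and -0.70 in the controls and 0.51 and 0.92 in the Ift88-deleted arrays. An _s_at or _x_at probe set can also match transcripts of other genes, and without those the mean over the Spred1 probe sets was 0.08 in place of 0.35.

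The mean over the pair of Spry2 probe sets, for the Sprouty gene most used as a marker of FGF activity, was 0.69 higher, and control 1 carried most of it. Its probe set 1436584_at was at -1.71 in control 1, -0.04 in control 2, and 0.25 and 0.04 in the Ift88-deleted arrays. The gap between the controls, 1.67, exceeded the group difference of 1.02 (SE 0.528, interval -0.31 to 2.34, adjusted p = 0.868), which was 0.18 without control replicate 1. The values of 1421656_at had the same order with a smaller spread, -0.32 and -0.06 against 0.29 and 0.06 (difference 0.36, SE 0.172, adjusted p = 0.848, and 0.23 without control replicate 1).

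Spry1 and Spry4 showed no separation of the groups. Spry1 was at -0.35 in control 1 and 0.37 in control 2, with the Ift88-deleted arrays at -0.19 and 0.19 between them (difference -0.01, interval -0.72 to 0.70). For Spry4 the 4 probe sets had differences from -0.09 to 0.11 and all overlapped. The one placed in the brightest class, 1440867_at, was at -0.14 and 0.31 in the controls and at 0.01 and -0.01 in the Ift88-deleted arrays.

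Dusp6, the phosphatase of ERK, varied more between the controls than any other of the 30 probe sets. Its single probe set was at -0.94 in control 1 and 1.31 in control 2, and at 0.46 and -0.46 in the Ift88-deleted arrays, which lay between them. The gap between the controls was 2.24, a gap reached by 0.0866% of all probe sets, and the gap between the Ift88-deleted arrays was 0.91. The group difference of -0.18 (SE 0.745, interval -2.05 to 1.68) therefore carries no direction: it was -1.31 when control 1 was left out and 0.94 when control 2 was.

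Some ERK-induced transcription factors also differed widely between the controls. Egr1 was at -1.10 in control 1 and 2.86 in control 2, with 0.15 and -0.15 in the Ift88-deleted arrays, a gap between the controls that only 4 of all probe sets reached, itself among them. Etv5 1428142_at was at -0.74 and 0.94 in the controls and 0.16 and -0.16 in the Ift88-deleted arrays. Fos was at -0.12 and 1.12 against -0.07 and 0.07, and Etv4 1423232_at at -0.51 and 0.07 against -0.07 and 0.08. Control 2 thus stood above control 1 for Dusp6, Egr1, Etv5, Fos, Etv4 and all 3 Sprouty genes in the probe sets given, which, with Fos, were put together after their values were seen. Others ran the other way, with Myc at 0.44 in control 1 and -0.35 in control 2, Ets1 1452163_at at 0.37 and -0.19, and Etv5 1450082_s_at at -0.02 and -0.07. Over the whole list of ERK-responsive genes control 2 stood above control 1 in 18 of 30 probe sets (60%, against 52% of all probe sets), and among the 10 receptor, ligand and feedback genes in 24 of 30. Control 1 was the lowest of the 4 arrays in 20 of these 30, where it was in 34.7 percent of all probe sets.

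**Figure D3:**
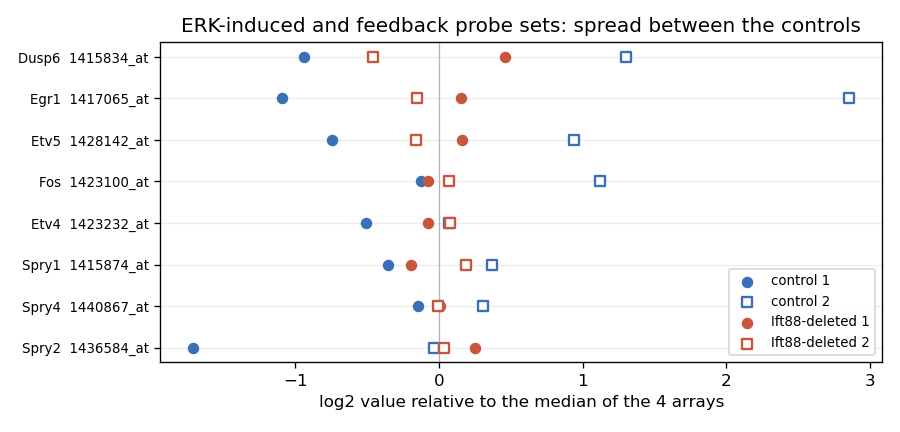
The plot of ERK-induced and feedback genes shows 1 probe set per row against the log2 value relative to the median of the 4 arrays. Controls are in blue and Ift88-deleted arrays in red, with replicate 1 as filled circles and replicate 2 as open squares. For each gene the probe set with the largest gap between the controls was taken, a choice that favours a wide spread. Some probe sets not shown had small gaps: Etv5 1450082_s_at (0.05), Etv4 1443381_at (0.09) and Spry4 1445669_at (0.01). The controls lie outside the Ift88-deleted arrays on both sides for Dusp6 (-0.94 and 1.31), Egr1 (-1.10 and 2.86) and Etv5 (-0.74 and 0.94), and Spry2 is low in control 1 alone.

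Upstream sequence is given for 4 of the genes, since Spred1 and Spry2 each had probe sets with higher values in both Ift88-deleted arrays, Fgfr3 lower values in 1 probe set, and Dusp6 is a classical ERK target. RefSeq (GRCm38.p6) supplied a start for 8 of the 10 genes, and the 250 bases before it are written 5′ to 3′ on the gene's strand, in lower case. Capitals mark matches to the ETS cores searched, CGGAAG and CAGGAA, letters bound by ETS factors such as ETV4 and ETV5. The windows are chr2:117120821-117121070 (plus strand, 70.8% G and C), chr14:105896820-105897069 (minus strand, 62.4%), chr5:33721474-33721723 (plus strand, the more upstream of 2 starts, 66.8%) and chr10:99262981-99263230 (plus strand, 56.4%).
Spred1: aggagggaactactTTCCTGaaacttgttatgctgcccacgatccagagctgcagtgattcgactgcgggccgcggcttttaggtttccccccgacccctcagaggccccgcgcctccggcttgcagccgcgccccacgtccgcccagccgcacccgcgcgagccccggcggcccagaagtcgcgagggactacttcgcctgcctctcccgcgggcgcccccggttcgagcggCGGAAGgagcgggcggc
Spry2: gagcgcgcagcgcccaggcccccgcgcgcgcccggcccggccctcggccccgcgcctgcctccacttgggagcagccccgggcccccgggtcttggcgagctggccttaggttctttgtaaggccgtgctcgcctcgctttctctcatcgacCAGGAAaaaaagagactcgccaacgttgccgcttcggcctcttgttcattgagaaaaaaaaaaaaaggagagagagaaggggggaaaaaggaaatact
Fgfr3: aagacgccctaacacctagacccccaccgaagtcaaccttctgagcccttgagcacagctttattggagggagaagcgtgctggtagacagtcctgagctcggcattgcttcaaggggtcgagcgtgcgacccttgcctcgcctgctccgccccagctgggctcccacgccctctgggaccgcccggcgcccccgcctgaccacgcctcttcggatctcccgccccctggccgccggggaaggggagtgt
Dusp6: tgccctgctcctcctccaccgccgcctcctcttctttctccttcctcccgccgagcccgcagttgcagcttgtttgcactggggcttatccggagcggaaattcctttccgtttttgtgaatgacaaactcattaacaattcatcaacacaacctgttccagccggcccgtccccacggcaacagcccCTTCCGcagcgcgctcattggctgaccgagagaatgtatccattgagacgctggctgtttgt

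The search covered both strands, and the motifs do not overlap in these windows. CGGAAG was found in Spred1, 17 to 12 bases before the start, and in Dusp6, as its reverse complement 62 to 57 bases before the start, and 13.6% of all 32851 such windows hold it. CAGGAA was found in Spred1 (as its reverse complement), Spry2 and Fgfr2, and in 25.7% of all windows. The core of the GLI site, CCACCCA, was in none of the 9 windows of these genes and in 8.1% of all, and the cAMP response element TGACGTCA was in none and in 1.5% of all. A match describes the letters alone.

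Around these genes, 0 of the 164 probe sets of 76 further pathway genes passed limma's adjusted threshold, in any of the 5 lists, and 17 had an unadjusted p under 0.05 (9 higher and 8 lower), beside 6.17 percent of all probe sets (3 percent higher and 3.18 percent lower). The groups were apart in 64 of the 164, or 39%, beside 33.6 percent of all probe sets. The 14 other FGF ligand genes had a median difference of 0.04 over 21 probe sets, with 0 under an unadjusted p of 0.05. Fgf9, a ligand of FGFR3, was at 0.12 and 0.13 in the controls against -0.18 and -0.12 (1420795_at, difference -0.27, adjusted p = 0.857), and Fgf2 at -0.06 and 0.06 against 0.11 and -0.14.

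The list of FGF co-receptors and cell-surface modulators, which includes heparan sulfate proteoglycans, had 18 of 37 probe sets apart, 11 higher and 7 lower. The median of the list was 0.07. Over all probe sets 33.6 percent were apart (16.2 percent higher and 17.4 percent lower). The syndecan Sdc1 was at -0.39 and -0.27 in the controls against 0.29 and 0.27 (1437279_x_at, difference 0.61, adjusted p = 0.581). Its other probe sets were at 0.43 (1415944_at) and 0.38 (1415943_at) with groups apart, and at -0.03 (1448158_at) with overlap. The probe sets of the syndecan Sdc4, both placed in the brightest class, lay on opposite sides: 1448793_a_at was at -0.30 and -0.21 against 0.21 and 0.36 (0.54), and 1417654_at at 0.25 and 0.10 against -0.31 and -0.10 (-0.38). The glypican Gpc3 lay the other way at 0.87 and 0.34 against -0.54 and -0.34 (difference -1.04, SE 0.219, adjusted p = 0.534).

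Of the signal transducers, 16 of 46 probe sets were apart (34.8%), 6 higher and 10 lower, with a median of 0.03. Over all probe sets 33.6 percent were apart, 16.2 percent higher and 17.4 percent lower. Those with the largest differences among groups apart and unadjusted p under 0.05 were the kinase Araf (-0.53), the GTPase Nras (-0.47) and the kinase Braf (0.43), each in 1 of several probe sets, some of which overlapped.

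The other feedback inhibitors had 7 probe sets higher and 6 lower of 30 with groups apart, and a median of 0.05. Over all probe sets 16.2 percent were apart and higher and 17.4 percent apart and lower. Dusp9, another phosphatase of ERK, was at 1.82 in control 1 and 0.41 in control 2 against -0.44 and -0.41 (1433845_x_at, difference -1.54, SE 0.448, adjusted p = 0.69), with control 1 again far from control 2 but here high. Its probe set 1454737_at was at 1.35 and 0.28 against -0.28 and -0.69 (-1.29), and 1433844_a_at, the one placed in the brightest class, at 0.44 and 0.07 against -0.07 and -0.12, a smaller difference of -0.35. Dusp9, like Gpc3 and Araf, lies on the X chromosome, and the arrays are split by Xist in the same way as by genotype. Spred2, the relative of Spred1, had 5 probe sets with differences from -0.10 to 0.51, of which 3 were higher with groups apart, and control 1 was the lowest array in those 3. Il17rd, which encodes the FGF antagonist SEF, was at 0.05 and -0.02 in its probe sets, and Dusp4 at -0.14.

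Among ERK-responsive genes the differences went both ways, with 6 probe sets higher and 6 lower of 30 with groups apart and a median of -0.02. The groups were apart in 40% of these 30, beside 33.6 percent of all probe sets (16.2 percent higher and 17.4 percent lower). Ier3, an early response gene, was at 1.14 and 0.53 in the controls against -0.59 and -0.53 (difference -1.39, SE 0.227, adjusted p = 0.364). Ccnd1, the cyclin of G1, lay the other way at -0.36 and -0.43 against 0.36 and 0.84 (1448698_at, 0.99, SE 0.2, adjusted p = 0.517). Its probe set 1417420_at was also apart (0.88), while 1417419_at overlapped, at 0.02 and -0.16 against -0.02 and 0.44 (0.28). Phlda1 was at 0.20 and 0.49 against -0.42 and -0.20 (-0.65).

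**Figure D4:**
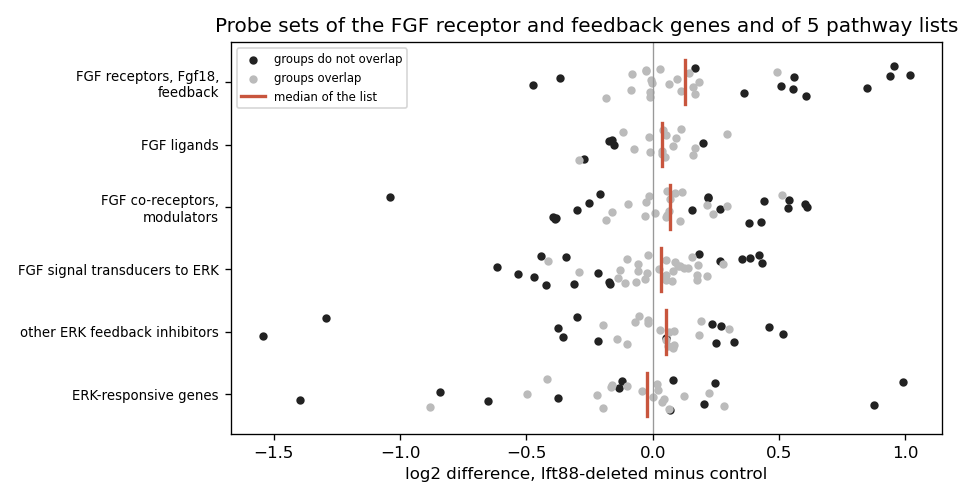
The plot of pathway lists shows the log2 difference, Ift88-deleted minus control, of each probe set as a point (black where the groups do not overlap, grey where they do) on a row for its list, with the list's median as a red bar. The medians lie between -0.02 for ERK-responsive genes and 0.13 for the receptors, Fgf18 and the feedback genes, and the lowest points are Dusp9 (-1.54 and -1.29) and Ier3 (-1.39).

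Markers of cell types were set beside these values, and their part in them was not tested. In bulk tissue, fewer cells of a type and less RNA per cell cannot be told apart. The 17 probe sets of chondrocyte markers had a median of 0.00 with differences on both sides: 8 were apart (47.1%, beside 33.6 percent of all probe sets), 4 higher and 4 lower, and none passed the adjusted threshold. The proteoglycan Acan was at -0.01 and 0.01 in the controls against 0.02 and -0.01, and Col2a1 at -0.13 and 0.02 against 0.40 and -0.02. The matrix gene Comp was lower, at 0.23 and 0.14 against -0.14 and -0.58 (-0.54, adjusted p = 0.766), as were 3 of 4 probe sets of the link protein gene Hapln1, apart by -0.47, -0.23 and -0.19. The 4 higher ones were Col9a1 1421381_a_at (0.26), Matn1 (0.24), Sox9 1424950_at (0.20) and Col11a1 1449154_at (0.12). Other probe sets of Col9a1, Sox9 and Col11a1 overlapped. The 14 probe sets of perichondrium, bone and fibroblast genes, a tissue that expresses Fgfr1 and Fgfr2, had array medians of -0.40 and 0.18 in the controls against 0.37 and -0.28, so control 1 was low here too and these medians overlapped. Of the 14, 6 were apart (42.9%), 3 higher and 3 lower. The higher ones were Dcn, the gene of decorin, at -1.40 and -0.14 in the controls against 0.33 and 0.14 (1449368_at, difference 1.00, and 0.90 in 1441506_at), and the fibroblast surface gene Thy1 at -0.42 and -0.12 against 0.83 and 0.12 (0.74). These lie on the same side as Fgfr1, and control 1 was the lowest array in all 3. The lower ones were Sp7 (-0.54), Twist1 (-0.46) and Pdgfra 1438946_at (-0.41), and Col1a1 1455494_at overlapped at -0.39 and 0.39 against 0.42 and -0.53.

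Hypertrophic markers had medians of -0.16 and 0.38 in the controls against 0.70 and -0.40, and their genes were mixed. Col10a1, at -0.17 and 0.17 against 0.72 and -0.46, was highest in Ift88-deleted 1, as were Ihh and Alpl. Mmp13, at -0.75 and 2.45 against -0.30 and 0.30, was highest in control 2. So was Ibsp, at -1.08 and 2.01 against 1.08 and -2.01 in 1417484_at. Blood, marrow and osteoclast markers had medians of -0.29 in control 1 and 0.45 in control 2 against -0.01 and -0.00, with 1 of 13 probe sets apart, and endothelial markers -0.16 and 0.21 against 0.00 and -0.02, with 0 of 7. Control 2, the high array for Dusp6, Egr1 and Fos, was thus also the high array for these 2 lists. Muscle markers were lower in the Ift88-deleted arrays in 14 of 15 probe sets, 9 with groups apart (17.4 percent of all probe sets were apart and lower). Only Tnni2 1416889_at passed (difference -3.17, limma adjusted p = 0.0416). The other Tnni2 probe sets did not, with differences of -2.61 (1438609_x_at, adjusted p = 0.0542) and -0.11 (1438608_at). As a sign of RNA ends, the 5′ control probe set was subtracted from the 3′ one. For Gapdh this gave -0.18 and 0.07 in the controls against -0.07 and -0.40, which overlapped. For Actb it gave 0.10 and -0.05 against -0.10 and -0.14, lower in both Ift88-deleted arrays. The Gapdh control probe sets were themselves lower with groups apart (3′ -0.75, 5′ -0.57, middle -0.38). Those of Actb were lower and apart at the 3′ end (-0.27) and middle (-0.20), and overlapped at the 5′ end (-0.12). No test is given for these.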

How the data were processed

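RNA of microdissected growth plate cartilage was measured on 4 arrays, grouped by their titles. The authors' deposited table holds log2 values (the base was inferred from the values). RMA is named, without a version, in the submitters' processing notes. The median of every probe set over the arrays is 0 (largest departure 5e-07), so levels are lost. A coarse brightness class was read from the numeric steps of the values, as the coarsest step on which all of them fall. It placed 17.8% of probe sets at a lowest RMA value of 2 to 4, 56.5% at 4 to 8 and 25% at 8 or more. Values can fall on a coarser step by chance, which places a probe set too bright. Of the last class, 16% also lie on the next coarser step.

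Of 45101 probe sets, 64 controls were left out. The other 45037 were fitted in limma 3.58.1 (R 4.3.3) on the group alone with eBayes and no trend (3.46 prior and 2 residual degrees of freedom), two-sided, with Benjamini-Hochberg adjustment at 0.05. The script was tested on simulated data. Precision is limited by the number of arrays. Gene names are those of the array's annotation. Genes were named by a rule: the 10 genes, up to 3 per pathway list with the largest differences among groups that do not overlap and unadjusted p under 0.05, and a fixed set of FGF, marker and sex-linked genes, of which Frs2 is not analysed here. Genes, lists and tests were chosen with earlier results of these data known. Chosen after their values were seen were Fos, Myc, Ets1, Comp, Hapln1, Col9a1, Matn1, Col11a1, Dcn, Thy1, Sp7, Twist1, Pdgfra and the subtracted pairs. So were the hypertrophic genes Mmp13, Ibsp, Ihh and Alpl. Alternatives were repeated quantile normalization, subtraction of array medians, the replicate number as a block, robust or no moderation, a threshold of 0.1, leaving out the dimmest class, gene means, gene means without _s_at and _x_at probe sets, and leaving out each array.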

Additional observations from a re-analysis of the deposited data

How the results depend on the processing

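None of the 30 probe sets passed under any alternative run, and the 164 pathway probe sets gave 0 as well. Over these alternatives the lowest adjusted p of the 30 ranged from 0.168, when control 2 was left out, to 1, when Ift88-deleted 2 was. The count over all probe sets, 20, was 5 with the replicate block, 2 with no moderation, and 9 to 12 with 1 array left out. The replicate numbers were not taken as pairs: the deviations of same-numbered arrays from their group means correlated at 0.102 over all probe sets, with only 2 pairs. The block changed no call among the 30. Repeated quantile normalization turned the sign of 5 small differences: Fgf18 1449545_at (-0.044), Fgfr1 1425911_a_at (-0.0086), Fgfr3 1421841_at (0.031), Fgfr4 1427776_a_at (0.0022) and Spred1 1445228_at (0.016). Leaving out 1 array turned the sign of 16 of the 30, none of which had passed, with these ranges: Dusp6 1415834_at (-1.31 to 0.94), Fgf18 1449545_at (-0.26 to 0.32), Fgfr1 1425911_a_at (-0.18 to 0.31), Fgfr2 1420847_a_at (-0.047 to 0.38), Fgfr2 1443211_at (-0.011 to 0.29), Fgfr3 1421841_at (-0.11 to 0.089), Fgfr4 1427776_a_at (-0.10 to 0.097), Fgfr4 1427845_at (-0.25 to 0.24), Fgfr4 1427846_x_at (-0.095 to 0.28), Spred1 1423162_s_at (-0.048 to 0.37), Spred1 1445228_at (-0.13 to 0.075), Spry1 1415874_at (-0.37 to 0.35), Spry4 1422020_at (-0.11 to 0.34), Spry4 1422021_at (-0.28 to 0.10), Spry4 1440867_at (-0.31 to 0.14) and Spry4 1445669_at (-0.13 to 0.075). Subtraction of array medians, robust moderation and leaving out the dimmest class turned none. The 5 probe sets of the dimmest class had no value in the last. With 2 arrays per group and levels removed, signal over background could not be assessed.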
